A study of Mus musculus with 8 samples.

Results

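Synaptic vesicle release genes encode the proteins that tether, prime, fuse and retrieve transmitter vesicles at the nerve terminal, and 43 of them were followed on gene expression arrays of the mouse hippocampus. Members were all probes whose gene name in the scanner files is one of these 43 symbols, with control probes left out. This gave 98 probes for 43 genes, of 41174 probes on the array, and this rule uses gene names, not measured values. A gene had between 1 and 6 probes, and 14 genes had 1. The study compared 4 male BTBR mice with 4 male B6 mice, all 5 months old and untreated, with the whole hippocampus of 1 mouse on each single-color Agilent array. BTBR stands for the inbred strain BTBR T+ Itpr3tf/J, which carries the tufted allele of Itpr3 and is used as a mouse model of autism, and B6 for the wild type inbred strain C57BL/6J. The strains differ across the whole genome, so no difference here can be tied to a single gene, and the labels of the BTBR samples give C57BL/6J under strain background, although their title, source and genotype name BTBR. The question was whether transcripts of the release machinery differed between the strains, probe by probe, and whether probes of a gene agreed.

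Transmitter is released when a calcium sensor of the synaptotagmin family, on the vesicle, responds to calcium entry and lets a bundle of SNARE proteins pull vesicle and plasma membrane together. Before that step, synapsins hold vesicles in a reserve, Rab3 and its effectors bring them to the active zone, and Rim and Munc13 proteins (Unc13 genes) prime them there. The hippocampus is a classic tissue for this machinery, since the mossy fibers of dentate granule cells and the terminals of CA3 pyramidal cells differ in release probability and in their sets of vesicle proteins.

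Each probe is 60 bases long, and the first 30 bases of the probes on which the results turn are given as the scanner files hold them, read 5′ to 3′. Bases in capitals are shared with another probe of the same gene. The base is the position on the transcript where the probe starts. Shown are the called probes, and beside them probes of the same genes that were not called, with the overlapping pair of Vamp2.
Syt1, base 1655: gtggtaactgttttggactatgacaagatt
Syt1, base 2338: accaacatcttaaaggacaacttaaacctg
Syt1, base 4069: TCAAATGAGGGgctttcctacttaagggac
Syt11, base 1235: gatatcaccggtctctcaggtaatccttat
Syt11, base 3408: ctagtccctgtcctttaacccatggaatgt
Sv2b, base 2852: gcaagggaaaagaacaaaatttctaactga
Sv2b, base 3746: tgttgctcatttgtgaaactcaggaccata
Synpr, base 2291: tctagataaagttgtaactgatgtgcaaat
Rab3b, base 999: ctccctcttatgaagaaggttcaagataga
Rab3b, base 3150: tccacctgagaaaagatgtatgtctgtgat
Vamp2, base 384: tgatcatcttGGGAGTGATCTGCGCCATCA
Vamp2, base 394: GGGAGTGATCTGCGCCATCATCCTCATCAT
On mm9, the called Syt1 probe lies at chr10:107937048-107937107, - strand, that of Syt11 at chr3:88551895-88552722, - strand, that of Sv2b at chr7:82349004-82349063, - strand, that of Synpr at chr14:14447724-14447783, + strand and that of Rab3b at chr4:108615760-108615819, + strand. A genomic span longer than the probe itself, as in Syt11 and the Vamp2 pair, shows that the probe crosses an exon junction, which held for 15 probes. For 2 of the 98 probes, both of Snap25, the files give no genome position and this is not known. Whether a probe lies in coding or untranslated sequence was not determined, because no annotation of mm9 was used here. The capitals of the Syt1 probe at base 4069 are the 11 bases it shares with the end of a probe at base 4020.

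Between 57.4% and 72.3% of spots were well above background on the B6 arrays and between 62.3% and 72.1% on the BTBR arrays, as the scanner software calls it, and precision is limited by the number of arrays. All 12 neuron, 14 interneuron and 7 CA1 marker genes were well above background on all arrays, as were 11 of 12 dentate and 9 of 11 CA3 and CA2 markers. So were 9 of 10 choroid plexus and all 10 meningeal markers, so this check does not set the hippocampus apart from other tissue. Of the marker probes, 2 of 23 for neurons were called higher in BTBR mice (limma adjusted p under 0.05 over all tested probes) and 3 lower, 0 of 20 for interneurons, 1 of 11 for CA1 (higher), 2 of 14 for CA3 and CA2 (1 in each direction), 1 of 20 for dentate granule cells (lower), 4 of 25 for astrocytes (all lower) and 6 of 18 for microglia (1 higher, 5 lower). No probe was called among the thalamus, striatum, oligodendrocyte, choroid plexus, meningeal, pituitary and blood markers, with 29, 11, 26, 14, 12, 7 and 3 tested. BTBR replicates 1 and 2 stood apart in several marker lists. BTBR replicate 1 had a summed intensity of 287029 over the thalamus probes, against 66175 to 89379 on the other 7 arrays, and all 29 probes were above 0, with all 14 genes well above background on all arrays. BTBR replicate 2 had 159412 over the striatum probes, followed by 58305 in B6 replicate 2 and 11798 to 34496 on the others, with 8 of 9 genes well above background on all arrays. Both arrays were also low in CA1 markers, with summed intensities of 77037 and 90498 against 115711 to 171020 on the other 6. They were high in oligodendrocyte markers, with 666566 and 775318 against 416253 to 560640, and in choroid plexus markers, with 101336 and 94125 against 20684 to 54771. BTBR replicate 3 was high in blood markers, with 203899 against 38527 to 78108 on the other 7 arrays, and had the lowest neuron and astrocyte sums (574051 and 481647). The main results are also given without BTBR replicates 1 and 2, a comparison chosen after the data were seen.

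For a test, a probe had to be well above background on 75% or more of a strain's arrays. This was met by 89 of the 98 probes, from 42 of the 43 genes, and 84 passed on each of the 8 arrays. No member probe was saturated or carried an outlier flag. Sv2c had no tested probe. The other untested probes belonged to Syn3 and Vamp1, with 2 each, and to Stxbp5, Synpr, Erc1 and Rims3, with 1 each, and every one of these genes had another probe that was tested. Of the 9 untested probes, 6 were not well above background on any array.

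Most of the release machinery did not differ detectably between the strains. Values are log2 intensities, a difference is BTBR minus B6, and a probe is called at a Benjamini-Hochberg adjusted p under 0.05 in limma, adjusted over all 27982 tested probes. Of the 89 probes, 5 were called, each in another gene. The called probe of Syt11 was higher in BTBR mice, and the called probes of Syt1, Synpr, Sv2b and Rab3b were lower. That is 5.62% of the tested member probes, against 7.67% of all tested probes on the array. Lower calls made up 4.49% of member probes and 4.33% of all probes, and higher calls 1.12% and 3.33%. The counts are therefore near the background of the array. The Sv2b probe was well above background on no BTBR array and passed the filter through the B6 arrays alone. The filter thus favored a lower value in BTBR mice in advance, and its call is no independent support. The other 4 of the 5 calls are on probes measured in both strains. Whether fewer cells of a type or less RNA per cell underlies a lower value cannot be told apart in whole tissue. The BTBR sequence under the probes was not used, so the part of strain variants in the value of a probe was not tested. Differences ran from -0.94 to 0.75, with 40 probes above 0 and 49 below. Their median was -0.02, beside 0.01 over all tested probes. The arrays of the strains did not overlap for 8 member probes (8.99%), a pattern seen in 14.2% of all tested probes, and 12 member probes (13.5%) had an unadjusted p under 0.05, as did 18.5% of all probes. The 95% confidence interval stayed within a 1.5-fold difference in either direction for 60 of the 89 probes (67.4%), beside 81.9% of all probes, and within 2-fold for 83 (93.3%, beside 94.1%). For the other 6 probes the interval reached past 2-fold in at least one direction.

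**Figure D1:**
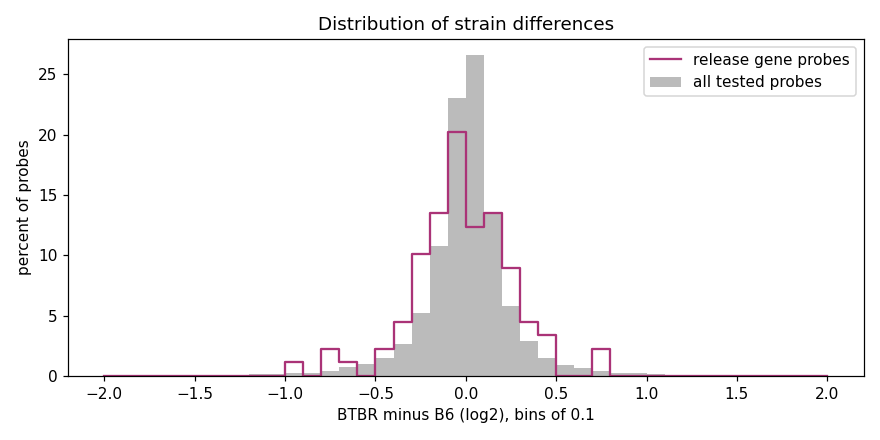
Percent of probes (y) in bins of 0.1 of the strain difference on the log2 scale (x), for all 27982 tested probes (gray bars) and the 89 tested release gene probes (line). Both distributions center near 0, with medians of 0.01 and -0.02.

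**Figure D2:**
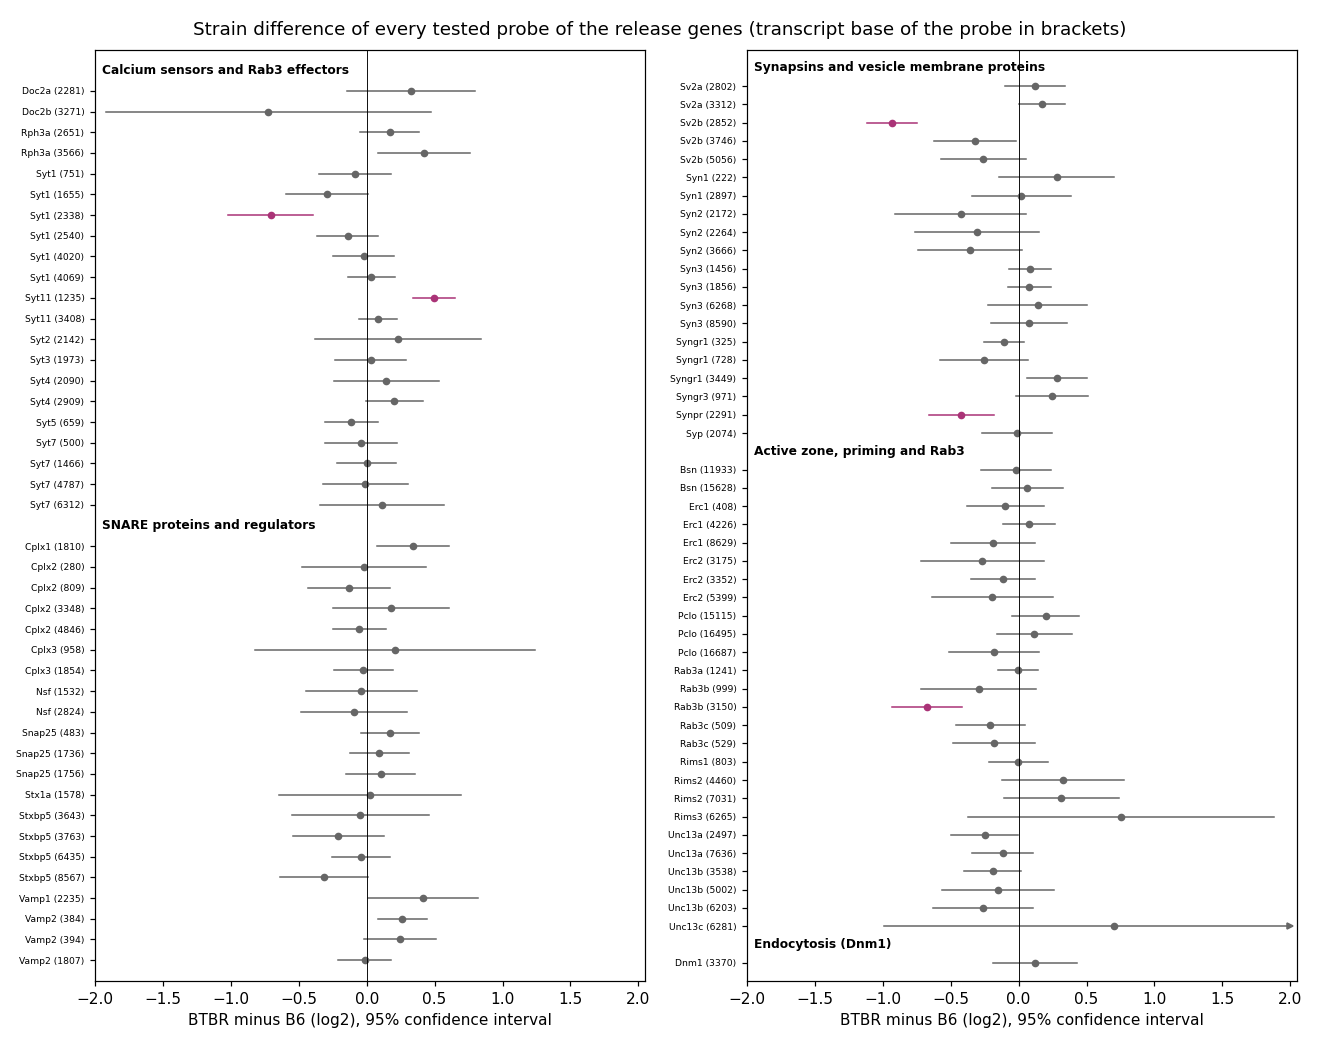
Strain difference (log2, x) with its 95% confidence interval for every tested release gene probe, grouped by role, with the transcript base of the probe in brackets. Colored points are the 5 called probes, and the interval of Unc13c runs past the right edge to 2.40.

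Among calcium sensors and Rab3 effectors with C2 domains, 21 probes of 10 genes were tested and 2 were called, 1 in each direction. Syt1, the sensor for fast synchronous release, gave different answers at its 6 probes. The probe at base 2338 (NM_009306) measured 12.09, 11.98, 12.12 and 12.30 in B6 replicates 1 to 4 and 11.32, 11.06, 11.64 and 11.64 in BTBR replicates 1 to 4. All 4 BTBR arrays lay below all B6 arrays. The difference was -0.71 (standard error 0.14, limma adjusted p = 0.0134), which is 1.63-fold lower in BTBR mice, with an exact two-sided permutation p of 0.0286, the smallest that 4 arrays against 4 allow. It was -0.84 on slide 1 and -0.57 on slide 2. The other 5 probes lay between -0.29 and 0.03 and none was called. The nearest of them on the same transcript, at base 1655, gave -0.29 (95% confidence interval from -0.60 to 0.01, limma adjusted p = 0.283). At bases 4020 and 4069 the differences were -0.02 and 0.03, with intervals from -0.25 to 0.20 and from -0.14 to 0.21. The gap between the strain differences of 2 probes was itself tested, over all 13526 pairs of tested probes that share a gene name. The probe at base 2338 differed from each of the other 5 Syt1 probes, by between 0.41 and 0.74 (limma adjusted p from 0.000551 to 0.0316). No pair among the other 5 was called.

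Syt11, a synaptotagmin that does not bind calcium and has been linked to vesicle retrieval, was the one member called higher. Its probe at base 1235 (NM_018804) measured 12.88, 12.91, 13.08 and 12.96 in B6 replicates 1 to 4 and 13.51, 13.52, 13.42 and 13.38 in BTBR replicates 1 to 4. The strains did not overlap, and all BTBR arrays were above all B6 arrays. The difference was 0.50 (standard error 0.07, limma adjusted p = 0.00195, exact permutation p = 0.0286), or 1.41-fold. It was 0.62 on slide 1 and 0.37 on slide 2, where limma did not call it alone (adjusted p = 0.062). The probe at base 3408, further toward the 3′ end of the same transcript, measured 16.37 ± 0.05 (SD, n = 4) on the B6 arrays against 16.45 ± 0.07 on the 4 BTBR arrays, a difference of 0.08 (95% confidence interval from -0.06 to 0.23). The gap between both probes was 0.41 (limma adjusted p = 0.0062). The called probe crosses an exon junction and the other does not.
No other gene of this group was called. Rph3a, which encodes the Rab3 effector rabphilin, came closest. Its probe at base 3566 measured 12.92, 12.61, 12.59 and 12.61 in B6 replicates 1 to 4 and 13.55, 12.95, 12.95 and 12.96 in BTBR replicates 1 to 4, without overlap, a difference of 0.42 (limma adjusted p = 0.155), and its probe at base 2651 gave 0.17 (adjusted p = 0.404). Syt4, which binds calcium poorly, gave 0.20 at base 2909 (adjusted p = 0.281) and 0.14 at base 2090. Doc2a, a sensor with high calcium affinity, gave 0.32 (adjusted p = 0.477). The 4 probes of Syt7, the slow sensor of asynchronous release and facilitation, lay between -0.04 and 0.11. Single probes of Syt2, Syt3 and Syt5 gave 0.23, 0.03 and -0.11. Syt2 was well above background on 2 of 4 B6 and 3 of 4 BTBR arrays. Doc2b, the close relative of Doc2a, varied too much within BTBR mice to be placed and is described with the other variable members.

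None of the 21 tested probes of SNARE proteins and their regulators, from 9 genes, was called. Their differences ran from -0.31 to 0.41, with a median of -0.02. Vamp2, the main vesicle SNARE of the forebrain, had the smallest adjusted p of the group. Its probe at base 384 measured 11.91, 11.92, 12.04 and 11.98 in B6 replicates 1 to 4 and 12.39, 12.07, 12.17 and 12.27 in BTBR replicates 1 to 4. The strains did not overlap, and the difference was 0.26 (limma adjusted p = 0.097, exact permutation p = 0.0286). The probe at base 394 shares 50 of its 60 bases with it and gave 0.24 (adjusted p = 0.32), so both count as nearly 1 measurement, whereas the probe at base 1807 gave -0.02 (95% confidence interval from -0.21 to 0.18). The gap between the probes at 384 and 1807 was 0.28 and missed the threshold (limma adjusted p = 0.0531). Complexin 1 (Cplx1), which clamps and then promotes fusion, gave 0.34 (95% confidence interval from 0.08 to 0.61, adjusted p = 0.143), with BTBR replicate 3 inside the B6 range. Vamp1 gave 0.41 (adjusted p = 0.26).
Snap25, the plasma membrane SNARE with 3 tested probes, lay between 0.09 and 0.17, and probes at bases 1736 and 1756 that share 40 bases differed by 0.01. Stx1a, its partner on the plasma membrane, gave 0.03 with an interval from -0.64 to 0.70. The 4 tested probes of Stxbp5, which encodes the release inhibitor tomosyn, were all below 0, between -0.31 and -0.04, the lowest with an adjusted p of 0.283. The 4 Cplx2 probes lay between -0.13 and 0.18, and both probes of Nsf, the ATPase that takes spent SNARE bundles apart, gave -0.04 and -0.09. Cplx3 gave -0.03 at base 1854.

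Among synapsins and vesicle membrane proteins, 20 probes of 9 genes were tested and 2 were called, both lower in BTBR mice. Sv2b encodes a vesicle glycoprotein that is abundant in forebrain glutamatergic terminals. Its probe at base 2852 of the cDNA AK035927 measured 8.87, 8.70, 8.69 and 8.52 in B6 replicates 1 to 4 and 7.80, 7.70, 7.82 and 7.71 in BTBR replicates 1 to 4. It was well above background on all 4 B6 arrays and on no BTBR array. B6 signal was at least 1.84-fold higher, which sets the mean of the B6 arrays against the higher of the measured signal and the dimmest signal called well above background on each BTBR array. The fitted difference was -0.94 (limma adjusted p = 0.000124), and it came to -3.31 when the software's own processed signal, scaled on its 75th percentile, was used and to -0.57 in the authors' deposited log2 values, a smaller fold than the bound. BTBR signal at this probe was at background, and the bound holds for the normalization used here. The probes on the RefSeq transcript NM_153579 gave -0.32 (95% confidence interval from -0.63 to -0.02, adjusted p = 0.231) and -0.26 (95% confidence interval from -0.57 to 0.05, adjusted p = 0.368). They lie 87506 bases and more from the called probe on chromosome 7. Since BTBR signal at the called probe is only bounded, the gap between its difference and theirs is not read as a measurement. The call on Sv2b rested on the cDNA probe alone.
Synpr encodes synaptoporin, a synaptophysin relative that is abundant in mossy fiber terminals of dentate granule cells. Its tested probe (base 2291, NM_028052) measured 14.39, 14.12, 13.89 and 14.00 in B6 replicates 1 to 4 and 13.65, 13.59, 13.72 and 13.74 in BTBR replicates 1 to 4. The strains did not overlap, and B6 replicate 1 was the highest. The difference was -0.42 (standard error 0.11, limma adjusted p = 0.046, exact permutation p = 0.0286). It was -0.63 on slide 1 and -0.21 on slide 2. This call is marginal, since it was kept when B6 replicate 3 was left out and lost when any of the other 7 arrays was (adjusted p up to 0.119). Markers of dentate granule cells were mostly lower too. Of 20 tested probes of 12 such genes, 19 were below 0, with a median of -0.39 and 1 called (Trpc6), and their summed intensity was 61496 to 94610 on B6 and 45126 to 70208 on BTBR arrays. These ranges overlap, and the sums did not follow Synpr on every array. B6 replicate 2 had 61496, below BTBR replicates 3 and 4 with 66052 and 70208, but a higher Synpr value than both. The part of these markers in the Synpr value was not tested.

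The other vesicle proteins were not called. The 3 Syn2 probes were all below 0, at -0.43, -0.31 and -0.36 (limma adjusted p from 0.31 to 0.489). They were farther from 0 on slide 1. There they were -0.80, -0.48 and -0.64, and on slide 2 -0.05, -0.13 and -0.08. Syn1 gave 0.28 and 0.02, and the 4 tested probes of Syn3 lay between 0.08 and 0.14. Syngr1, a synaptogyrin, had probes in opposite directions, with -0.11 at base 325, -0.26 at base 728 and 0.28 at base 3449 on another transcript (adjusted p = 0.146). The gap between the probes at 728 and 3449 was 0.54 and was not called (limma adjusted p = 0.13). Syngr3 gave 0.24 (adjusted p = 0.31). Sv2a, the binding site of the drug levetiracetam, gave 0.17 at base 3312, where the strains did not overlap (adjusted p = 0.271), and 0.12 at base 2802. Syp, the classic vesicle marker synaptophysin, gave -0.02 (95% confidence interval from -0.27 to 0.24). Sv2c, with 1 probe, was well above background on 1 of 8 arrays, BTBR replicate 2, and was not tested.

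**Figure D3:**
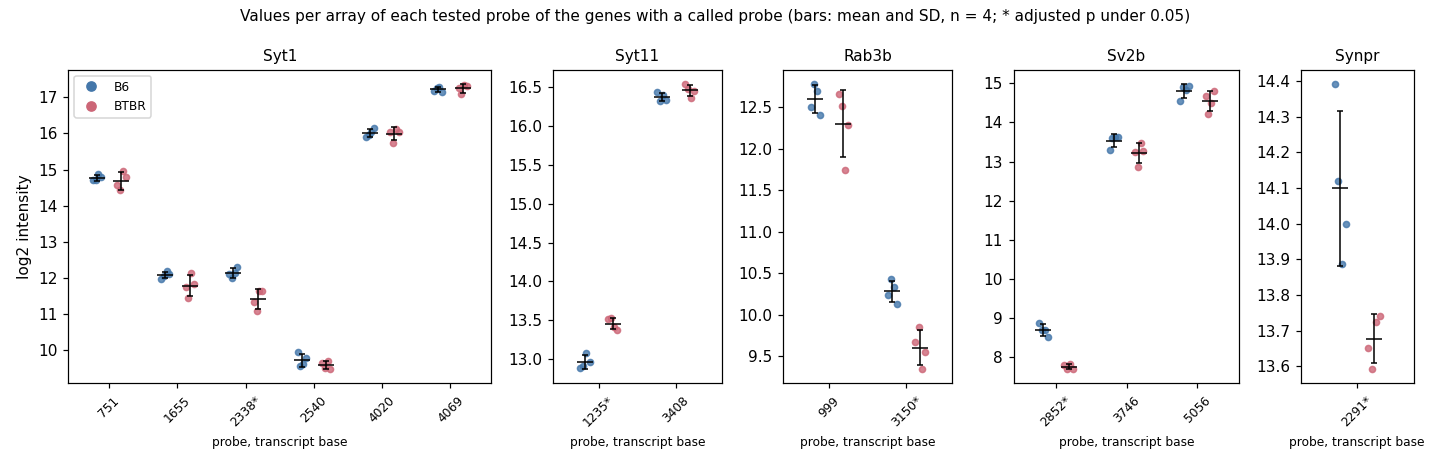
Log2 intensity (y) of each tested probe of the 5 genes with a called probe, by its transcript base (x), with 1 point per array and bars for mean and SD (n = 4). Probes with an asterisk were called. In Syt1 the strains separate at base 2338 and overlap at the other 5 probes.

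Of the active zone scaffolds, priming factors and Rab3 genes, 26 probes of 13 genes were tested and 1 was called. Rab3b encodes one of the vesicle GTPases that guide vesicles to the active zone. Its probe at base 3150 (NM_023537) measured 10.24, 10.43, 10.34 and 10.12 in B6 replicates 1 to 4 and 9.67, 9.85, 9.35 and 9.55 in BTBR replicates 1 to 4. Every BTBR array lay below every B6 array. The difference was -0.68 (standard error 0.11, limma adjusted p = 0.00614, exact permutation p = 0.0286), or 1.60-fold lower in BTBR mice, with -0.57 on slide 1 and -0.78 on slide 2. The probe at base 999 measured 12.50, 12.78, 12.69 and 12.40 in B6 replicates 1 to 4 and 12.66, 12.51, 11.74 and 12.28 in BTBR replicates 1 to 4, with overlap, and gave -0.29 (95% confidence interval from -0.72 to 0.13). BTBR replicate 3, the array high in blood markers, was the lowest at both probes, and without it the called probe gave -0.59 (limma adjusted p = 0.0091). The part of these markers in the value was not tested. Both differences were negative, and the gap of 0.38 between them was not called (limma adjusted p = 0.0789). Rab3a, the main Rab3 of the forebrain, gave -0.01 (95% confidence interval from -0.15 to 0.14), the narrowest interval of the group, and both Rab3c probes, which share 40 bases, gave -0.21 and -0.18 (adjusted p = 0.387 and 0.547).
No scaffold or priming gene was called. Of the 26 probes of this group, Rab3b included, 18 were below 0, with a median of -0.12. The Munc13 genes Unc13a and Unc13b had 5 probes between -0.26 and -0.12, the smallest adjusted p being 0.259 for Unc13a at base 2497 and 0.316 for Unc13b at base 3538, a probe well above background on 3 of 4 B6 and 1 of 4 BTBR arrays. The scaffolds Bsn, Erc1 and Erc2 lay between -0.02 and 0.06, between -0.19 and 0.08 and between -0.27 and -0.11. Pclo, which encodes piccolo, had 0.20, 0.12 and -0.18 at its 3 probes (adjusted p = 0.393 for the first). Rims1 gave -0.0037, and both Rims2 probes gave 0.33 and 0.31, with 0.62 and 0.64 on slide 1 but 0.04 and -0.01 on slide 2. Dnm1, the dynamin that cuts retrieved vesicles from the membrane and the one endocytosis gene among the members, gave 0.12 (95% confidence interval from -0.19 to 0.43).

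Probes of a gene disagreed in few cases. Of the 26 genes with 2 or more tested probes, 17 had all probes on one side of 0, 9 of them below and 8 above, and 9 had probes on both sides. Of the 78 pairs of probes within these genes, 8 differed in their strain difference (10.3%, beside 8.73% of all pairs on the array), of which 5 were in Syt1, 1 in Syt11 and 2 in Sv2b. In all 3 genes the pairs involved the called probe. The 2 pairs of Sv2b rest on a probe at background on all BTBR arrays and are counted but not read as disagreement. The count of called pairs ran from 4, without BTBR replicate 1, to 12, without BTBR replicate 3, when 1 array was left out, and it was 5 without B6 replicate 1 or 2. The pairs of Syt11 and those of Syt1 with the probes at bases 751, 4020 and 4069 were kept each time, whereas both pairs of Sv2b and the Syt1 pairs with bases 1655 and 2540 were lost at least once. The 4 pairs of probes with overlapping sequence, in Vamp2, Snap25, Rab3c and Syt1, gave strain differences that were 0.01 to 0.05 apart, with 11 bases shared in Syt1 and 40 or 50 in the others. When each gene was given, on each array, the median log2 intensity of its probes instead, 2 of 42 genes were called (4.76%, beside 7.79% of all gene names), Syt11 with 0.29 (limma adjusted p = 0.0175) and Synpr, whose 1 tested probe stayed as it was. The strain difference of this median level was -0.23 for Syt1, -0.32 for Sv2b and -0.49 for Rab3b (adjusted p = 0.379, 0.232 and 0.0929). A median level follows the probes of middle brightness, and the median of the 6 probe differences of Syt1 was -0.11. The rank product, the test of the study, which ranks the fold changes of all BTBR and B6 array pairs and estimates no variance for a probe, called 4 member probes at a pfp of 0.05 or less (4.49%, beside 3.91% of all probes). These were Syt1, Sv2b and Rab3b, which limma also called, and Unc13c, higher in BTBR mice with a pfp of 0.0408. For Sv2b, whose probe passed the filter through the B6 arrays alone, the second call adds no support.

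Several members varied widely between mice of one strain. The pooled SD within strains had a median of 0.19 over the 89 probes and 0.13 over all tested probes, and 19 member probes (21.3%) lay above the 90th percentile of all probes. The 4 largest spreads were those of Unc13c, Doc2b, Rims3 and Cplx3. Unc13c, the third Munc13 gene, measured 9.25, 10.72, 9.43 and 9.60 in B6 replicates 1 to 4 and 10.84, 12.53, 8.52 and 9.91 in BTBR replicates 1 to 4. BTBR replicate 2 was the highest and BTBR replicate 3 the lowest of all 8 arrays, and the strains overlapped. The difference of 0.70 had an interval from -0.995 to 2.40 (limma adjusted p = 0.698), and it was 1.70 on slide 1 and -0.30 on slide 2. Doc2b measured 9.93, 9.61, 10.19 and 10.41 in B6 replicates 1 to 4 and 8.95, 7.74, 10.40 and 10.16 in BTBR replicates 1 to 4. BTBR replicates 1 and 2 were low, replicate 2 not well above background, while replicates 3 and 4 lay within the B6 range, and the strain difference, -0.72 (adjusted p = 0.54), reached -1.43 on slide 1 and -0.02 on slide 2. Rims3, a short Rim, measured 13.40, 14.15, 13.87 and 12.71 in B6 replicates 1 to 4 and 15.54, 14.65, 13.26 and 13.69 in BTBR replicates 1 to 4. BTBR replicates 1 and 2 were the highest, and the strain difference, 0.75 (adjusted p = 0.492), was 1.32 on slide 1 and 0.18 on slide 2. Cplx3, at base 958, measured 10.57, 10.83, 10.35 and 9.21 in B6 replicates 1 to 4 and 11.29, 10.84, 9.36 and 10.29 in BTBR replicates 1 to 4, with values from 9.21 to 11.29 and a difference of 0.21 (adjusted p = 0.866).
Markers stood apart on the same arrays. Unc13c was highest on BTBR replicate 2, the array with the highest striatum sum, and Rims3 on BTBR replicate 1, that with the highest thalamus sum. Doc2b was lowest on BTBR replicates 1 and 2, which had the lowest CA1 sums and the highest oligodendrocyte and choroid plexus sums. The part of these markers in the values was not tested. Leaving out BTBR replicates 1 and 2 sets BTBR arrays of slide 2 against B6 arrays of both slides. Strain is then partly mixed with slide. Without BTBR replicates 1 and 2 the differences were -0.54 for Unc13c, 0.24 for Doc2b, -0.06 for Rims3 and -0.41 for Cplx3, each with the sign turned. Among the 84 uncalled probes, 31 turned sign and 25 moved by over 0.2. Vamp1 went to 0.09, the Rims2 probes at bases 4460 and 7031 to -0.0094 and -0.03, and the Syn2 probes at bases 2172, 2264 and 3666 to -0.06, 0.02 and -0.04. The called probes of Syt1, Syt11 and Rab3b stayed called without these arrays, at -0.48, 0.44 and -0.83 (limma adjusted p = 0.0337, 0.0235 and 0.00484), Synpr did not (-0.37, adjusted p = 0.227), and a Cplx2 probe at base 3348 was called higher (0.51, adjusted p = 0.035). With Sv2b, still at background in BTBR mice, 5 member probes and 5.55% of all probes were called.

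**Figure D4:**
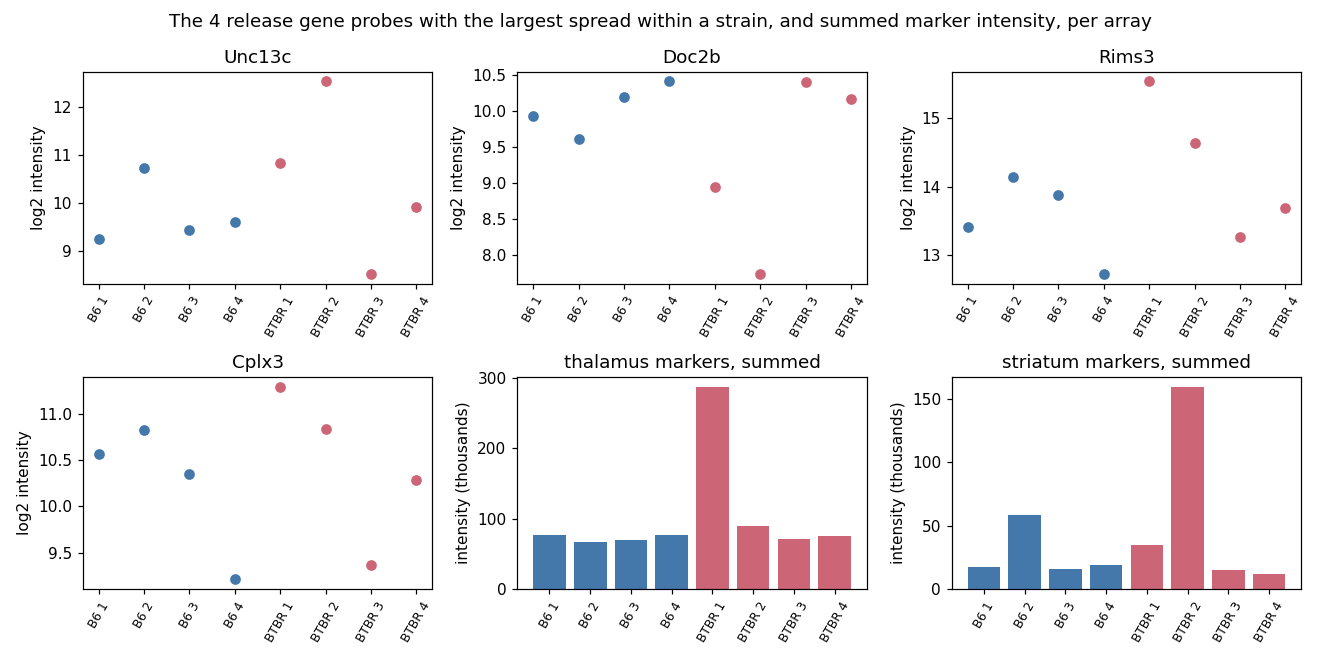
Log2 intensity per array of the 4 release gene probes with the largest spread within a strain (points), and the summed intensity of the thalamus and striatum marker probes (bars from 0), for B6 (blue) and BTBR (red) arrays. BTBR replicate 1 stands apart in the thalamus sum and BTBR replicate 2 in the striatum sum. Both are the lowest arrays in Doc2b and the highest in Rims3.

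Replicates 1 and 2 of both strains shared slide 1 and replicates 3 and 4 shared slide 2, so the difference could be taken within each slide. BTBR replicates 1 and 2, which stood apart in several marker lists, are the BTBR arrays of slide 1. What is particular to slide 1 and to these mice therefore cannot be told apart. Of the 89 probes, 56 had the same sign on both slides (62.9%, beside 56.8% of all probes). Differences had a median size of 0.24 on slide 1 and of 0.11 on slide 2, beside 0.16 and 0.10 over all probes. Differences above 0.4 in either direction were seen for 25 member probes on slide 1 and for 6 on slide 2. With slide as a block, 1 member probe was called higher and 4 lower, and 8.34% of all probes were called. Using 1 pooled estimate of the spread, limma called 10 member probes within slide 1 and 3 within slide 2, where 8.62% and 3.71% of all probes were called. The 3 on slide 2 were Syt1, Sv2b and Rab3b. The test of strain against slide called no probe of the array (0 of 27982 in limma, with 2766 at an unadjusted p under 0.05, and 12 of these among members), and the smallest adjusted p of a member was 0.409, so a difference between slides was not shown for any member.

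**Figure D5:**
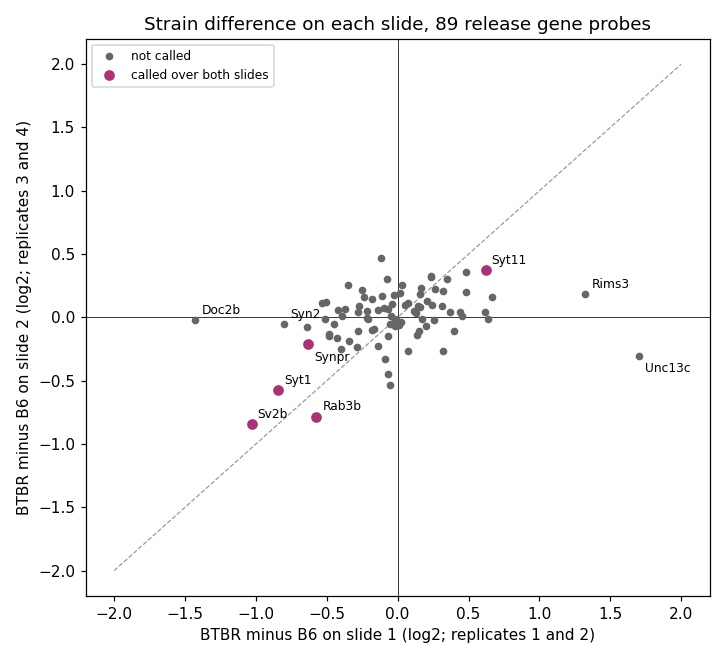
Strain difference (log2) of the 89 tested release gene probes on slide 1 (x) and on slide 2 (y), with the dashed line of equal values. The 5 called probes have the same sign on both slides, whereas Doc2b, Rims3, Unc13c and Syn2 lie far from 0 on slide 1 and nearer to it on slide 2.

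Release and recycling genes outside the members were read the same way, from a list of 104 symbols of which 103 are on the array. Of 195 tested probes from 98 genes, 11 were called (5.64%, beside 7.67% of all probes), 7 higher and 4 lower in BTBR mice, in 9 genes. Their median difference was 0.01. The largest was in Napa, which encodes alpha-SNAP, the adaptor that brings Nsf to SNARE bundles. Its probe at base 2271 measured 12.34, 11.89, 11.91 and 12.14 in B6 replicates 1 to 4 and 8.19, 8.28, 8.31 and 8.29 in BTBR replicates 1 to 4, a difference of -3.80 (limma adjusted p = 9.6e-08). Its probes at bases 341 and 1120 gave 0.03 and 0.08, and the gaps to the called probe were both called (3.84 and 3.88). Rab3gap2, a subunit of the enzyme that switches Rab3 off, had probes called in both directions, with -1.12 at base 6216 (adjusted p = 4.9e-06) and 0.29 at base 4861 (adjusted p = 0.0418), and a gap of 1.41 between them. Rab27b, a vesicle GTPase related to Rab3, gave -1.10 at base 1567 and 0.00 at base 4328 (adjusted p = 7.8e-05 and 0.993). Syt10, a synaptotagmin of dense core vesicle release, measured 9.33, 9.67, 9.21 and 9.12 in B6 replicates 1 to 4 and 11.83, 11.84, 10.98 and 11.84 in BTBR replicates 1 to 4, a difference of 2.29 (adjusted p = 0.000173) at its 1 tested probe. Vti1a, a SNARE of endosomes and of some vesicles, rose by 0.51 and 0.36 at bases 3291 and 345 and gave -0.22 and -0.06 at its other tested probes. Ppfia3, which encodes the active zone protein liprin-alpha-3, rose by 0.39, Stx7, an endosomal syntaxin, by 0.28, and Stxbp6, which encodes the SNARE regulator amisyn, fell by 0.55 (adjusted p = 0.0181, 0.0274 and 0.0336). The eleventh called probe was in Stx16.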

How the data were processed

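RNA of the hippocampus of 8 mice was read on Agilent 4x44K arrays with Feature Extraction (version 10.7.3.1 per the file headers, 9.1 in the submitters' processing notes). Per the file headers the scanner files give the mean spot intensity, the median local background intensity and a processed intensity, with flags of 0 or 1 for other spot qualities, and no scaling between arrays. The authors also deposited log2 values that were background subtracted and quantile normalized with replicate spots by their median, which served as an alternative.

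From the mean intensity the local background was subtracted. The floor was 0.5. After adding 50 and taking log2, arrays were quantile normalized and replicate spots of a probe reduced to their median (R 4.3.3). Probes with an outlier flag (154) were left out. Probes well above background on 75% or more of a strain's arrays were tested (27982 of 41174) with limma 3.58.1, strain alone, Benjamini-Hochberg over all tested probes, called at an adjusted p under 0.05. Named single probes were also tested by exact permutation over 70 assignments. The rank product used 100 permutations and a pfp, the expected share of false calls, of 0.05. Alternatives were other background corrections, scalings, offsets, filters and thresholds, each array left out, the slide or the replicate number as a block, each slide alone, and limma's trend and robust options. The limma step was tested on simulated data. Member probes, gene lists and tests were chosen with earlier results of these data known. Every member gene is named, with full values for genes with a called probe or a called pair of probes, and up to 4 examples per role by the smallest adjusted p. Of the other release genes, the 10 called probes with the smallest adjusted p are given. Probe coordinates are mm9, from the scanner files. The BTBR genome sequence under the probes was not used here.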

Additional observations from a re-analysis of the deposited data

Results flagged for a closer look

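On all 89 tested member probes, 178 groups of 4 arrays were checked for an array that stood far from the other 3 relative to the range of its group, and 9 such arrays were found. Chance gives about 1 in 20 groups. The Rph3a probe at base 3566 had 2 of them, with B6 replicate 1 at 12.92 above the other B6 arrays (12.59 to 12.61) and BTBR replicate 1 at 13.55 above the other BTBR arrays (12.95 to 12.96). The Syn1 probe at base 222 had B6 replicate 1 at 12.13 above the other B6 arrays (11.28 to 11.39), and without that array its difference went from 0.28 to 0.47 and was called. The Stxbp5 probe at base 8567 had BTBR replicate 4 at 12.11 above the other BTBR arrays, and without it the difference of -0.47 was called. The Sv2b probe at base 3746 had B6 replicate 1 at 13.29, below the other B6 arrays (13.61 to 13.62). The other 4 were B6 replicate 3 at 13.44 for Cplx2 at base 809, BTBR replicate 2 at 15.80 for Snap25 at base 1736, B6 replicate 4 at 11.65 for Syt3, each above its group, and B6 replicate 2 at 10.81 for Stxbp5 at base 3643, below its group.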

How the results depend on the processing

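At an adjusted p under 0.05 and probe by probe, the calls on Rab3b and Syt1 were kept in all 22 alternatives. That on Sv2b was kept in the 21 that tested its probe, which says nothing of its stability, since the probe passed the filter through the B6 arrays alone. Syt1 was lost at 0.01 (adjusted p = 0.0134), and all 3 genes were lost with each gene at the median level of its probes. A filter that asks for signal well above background on all arrays left the Sv2b probe out, with 3 member probes called lower and 4 member genes called. Over these alternatives Rab3b, Syt1 and Sv2b had differences from -0.83 to -0.57, from -0.84 to -0.48 and from -3.31 to -0.57 in that order. The call on Syt11 was kept in 21 of 22 and lost within slide 2, and that on Synpr was kept in 10 of 22, with adjusted p from 0.0167 to 0.532. Against 1 member probe called higher, there were 2 with the processed signal scaled by the 75th percentile, 2 without BTBR replicates 1 and 2, 2 at an adjusted p under 0.1, 3 within slide 1 and 0 within slide 2. Leaving out 1 array gave 1 to 3. Against 4 called lower, there were 7 within slide 1, 2 at an adjusted p under 0.01 and 3 to 4 with 1 array left out. Against 5 member genes called, there were 9 within slide 1, 3 within slide 2 and 2 with each gene at the median level of its probes, and 4 to 6 with 1 array left out. Of the other release genes, 9 were called, 5 within slide 2 and 5 to 10 with 1 array left out. The called pairs of probes numbered 8, and 4 to 12 with 1 array left out. The cause of these shifts was not tested.

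The replicate number does not pair the mice by any label, and the correlations of same-numbered arrays were -0.14, 0.51, -0.10 and 0.39. With the replicate number as a block, 2 member probes were called higher and 3 lower, since Rph3a at base 3566 was gained (adjusted p = 0.0336) and Synpr lost, and 5.93% of all probes were called.

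The 21 uncalled probes followed over the alternatives, those named by the smallest adjusted p or the largest spread, kept their sign and stayed uncalled in 445 checks, became called in 8 and reversed in 7. Reversed were Cplx3 at base 958 without B6 replicate 4 (-0.14), without BTBR replicate 1 (-0.08) and without BTBR replicates 1 and 2 (-0.41), Unc13c within slide 2 (-0.30) and without BTBR replicates 1 and 2 (-0.54), Doc2b without BTBR replicates 1 and 2 (0.24) and Rims3 without BTBR replicates 1 and 2 (-0.058). Gained were Cplx1 with the processed signal (0.34) and without BTBR replicate 3 (0.43), Vamp1 without BTBR replicate 3 (0.57) and within slide 1 (0.66), Syngr1 at base 3449 without BTBR replicate 2 (0.37), Stxbp5 at base 8567 without BTBR replicate 4 (-0.47) and Syn2 at base 3666 within slide 1 (-0.64). Rph3a at base 3566 was gained with the replicate number as a block (0.42). Among the other member probes, Rims2 at base 7031 (0.64), Stxbp5 at base 3763 (-0.53) and Syn2 at base 2172 (-0.80) were called within slide 1, Syn1 at base 222 without B6 replicate 1 (0.47) and Cplx2 at base 3348 without BTBR replicates 1 and 2 (0.51). Reversals were not tallied for them beyond the 31 of 84 uncalled probes without BTBR replicates 1 and 2. The Sv2b probe at base 2852, at background on BTBR arrays, ranged widely with the processing, and 9 member probes were too dim for a test.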
